A study of Mus musculus with 14 samples.

Results

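PRDM16 binding was examined at 41 genes of glycolysis and of the response to low oxygen, named in a list. The list was chosen with earlier results of these data known, so no test was made on its shares. A peak of the wild-type (WT) whole-ventricle ChIP-seq list was assigned to the protein-coding gene nearest to its summit, by distance to the gene body, and 63 of 17587 WT peaks fell to these genes. At least 1 peak was assigned to 27 of the 41 genes (65.9%), and 14 had none. Over all 21883 protein-coding genes the share with at least 1 peak was 32.9%. The tissue was mouse ventricle without atria from embryos at E13.5, of strain C57BL/6 throughout. The WT groups carry the label "Mock" under genetic manipulation. Whole ventricles gave 2 WT PRDM16 libraries and 1 library of a Prdm16 conditional knockout (Prdm16cKO), each from 3 hearts pooled by genotype, with 2 WT inputs and 1 knockout input. Left ventricle (LV) and right ventricle (RV) gave 2 WT PRDM16 libraries and 2 inputs each, every one a pool of 10 to 12 ventricles. What drives the conditional deletion is not stated in the labels. Binding to DNA does not measure expression, so the tissue labels were not checked against marker transcripts. In pooled tissue, binding in fewer cells and weaker binding per cell cannot be told apart.

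PRDM16 is a DNA-binding protein with zinc fingers and a PR domain, and it acts with chromatin-modifying partners. Glycolysis splits glucose into pyruvate, which is either reduced to lactate or oxidised in mitochondria, and the embryonic heart draws on glycolysis more than the adult heart does. At low oxygen the prolyl hydroxylases (Egln genes) no longer mark the HIF alpha subunits for the VHL ubiquitin ligase. HIF alpha then pairs with ARNT and binds short hypoxia response elements near genes of glucose uptake, glycolysis, lactate export and blood vessel growth.

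Peaks of the listed genes often reached the bases just before a start site, and 8 of these windows are shown: 4 with the strongest peaks (Pdk4, Eno3, Slc16a3, Pkm), those of Hif1a, Bnip3 and Hk2, and that of Pgam2 with no core. RefSeq start sites (GRCm38.p6) were at hand for 37 of the 41 genes, 58 sites in all. The 250 bases before the site were searched. Of these 58 windows 19 (32.8%) overlapped a WT peak, against 6.14% of 32851 windows of all genes. The 58 windows were also richer in CG pairs, with a median of 13 per window against 6 in all windows. The part of this difference in the share was not tested. The 32851 windows belong to 27025 genes and were not limited to protein-coding genes, as the 41 are. The 19 windows belong to 17 genes, each with the peak assigned to that same gene, since Pkm and Aldoa have a pair each. Those of Aldoa overlap. Each sequence is given 5′ to 3′ on the strand of its gene, and capitals mark ACGTG or GCGTG, the core of the hypoxia response element, or its complement.
Hif1a, chr12:73907617-73907866, plus strand: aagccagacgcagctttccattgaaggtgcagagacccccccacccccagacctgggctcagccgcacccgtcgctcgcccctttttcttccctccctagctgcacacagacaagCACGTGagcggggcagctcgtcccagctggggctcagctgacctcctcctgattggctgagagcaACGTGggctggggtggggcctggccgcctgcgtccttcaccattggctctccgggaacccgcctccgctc
Bnip3, chr7:138909507-138909756, minus strand: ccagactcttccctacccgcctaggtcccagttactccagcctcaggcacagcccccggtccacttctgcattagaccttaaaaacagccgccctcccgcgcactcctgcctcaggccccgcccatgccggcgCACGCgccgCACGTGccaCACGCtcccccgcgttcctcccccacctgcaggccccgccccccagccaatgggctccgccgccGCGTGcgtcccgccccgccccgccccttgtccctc
Hk2, chr6:82774455-82774704, minus strand: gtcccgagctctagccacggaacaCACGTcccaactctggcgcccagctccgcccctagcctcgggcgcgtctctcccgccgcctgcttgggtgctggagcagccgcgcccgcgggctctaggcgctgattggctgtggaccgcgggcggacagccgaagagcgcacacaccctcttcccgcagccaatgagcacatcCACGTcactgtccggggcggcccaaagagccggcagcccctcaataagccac
Pgam2, chr11:5803797-5804046, minus strand: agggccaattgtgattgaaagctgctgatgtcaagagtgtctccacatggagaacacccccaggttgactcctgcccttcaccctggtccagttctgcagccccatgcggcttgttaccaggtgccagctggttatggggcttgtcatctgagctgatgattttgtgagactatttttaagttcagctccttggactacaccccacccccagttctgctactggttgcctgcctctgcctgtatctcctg
Eno3, chr11:70656926-70657175, plus strand: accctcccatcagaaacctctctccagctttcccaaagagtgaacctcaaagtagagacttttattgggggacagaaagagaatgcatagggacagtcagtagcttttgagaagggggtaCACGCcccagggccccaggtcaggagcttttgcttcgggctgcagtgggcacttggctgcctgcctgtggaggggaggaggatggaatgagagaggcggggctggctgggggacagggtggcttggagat
Pkm, chr9:59656326-59656575, plus strand: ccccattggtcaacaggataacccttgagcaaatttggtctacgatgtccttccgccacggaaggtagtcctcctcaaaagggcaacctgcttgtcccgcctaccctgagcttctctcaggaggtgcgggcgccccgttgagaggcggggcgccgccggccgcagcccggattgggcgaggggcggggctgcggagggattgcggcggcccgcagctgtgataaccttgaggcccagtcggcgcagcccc
Pdk4, chr6:5496279-5496528, minus strand: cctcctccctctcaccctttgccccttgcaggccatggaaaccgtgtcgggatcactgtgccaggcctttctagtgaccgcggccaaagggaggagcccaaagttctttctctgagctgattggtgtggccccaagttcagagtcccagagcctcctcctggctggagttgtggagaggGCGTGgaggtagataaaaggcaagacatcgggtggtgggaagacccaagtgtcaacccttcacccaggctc
Slc16a3, chr11:120948817-120949066, plus strand: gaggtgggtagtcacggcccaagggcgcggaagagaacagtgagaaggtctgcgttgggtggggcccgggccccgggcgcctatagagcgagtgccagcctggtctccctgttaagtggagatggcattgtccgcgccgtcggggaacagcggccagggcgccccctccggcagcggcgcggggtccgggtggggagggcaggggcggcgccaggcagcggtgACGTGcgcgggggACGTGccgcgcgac

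The core was found in 17 of these 19 windows (89.5%). It was present in 55.1% of the 2016 windows of all genes that overlap a WT peak and in 38.6% of all windows. Neither of these sets was limited to protein-coding genes. Among the windows of the listed genes without a peak the core was found in 27 of 39 (69.2%). The list was drawn up in part from hypoxia genes. In 13 of the 19 windows at least 1 match lay whole inside the peak, a count that was not made for the windows of all genes. Bnip3 had 5 matches, with 4 of them inside its peak, and Hif1a had 3. A CACGTG holds a core on either strand and is counted as a pair of matches. The first Pkm window and that of Pgam2 held none, which says only that these letters are absent there. The core contains a CG pair, and the CG count differed as well. Its median per window was 18 in the 19 and 11 in the 39 without a peak. In all windows with a peak it was 16, and in all windows 6. The part of the CG count in these shares was not tested.

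CACGTG, the E-box bound by MYC and USF factors, occurred in 5 of the 19 windows (26.3%), namely those of Hif1a, Pfkfb3, Slc16a1, Bnip3 and Pdk2. In all windows with a peak it occurred in 8.48%. The GC box GGGCGG was found in 9 of 19 (47.4%) against 59.97% of all windows with a peak. The GATA letters AGATAA or TGATAA occurred in 3 of 19 (15.8%, against 9.97%), in the windows of Pdk4, Pkm and Slc16a1. TEAD letters, GGAATG, occurred in 2 of 19 (10.5%, against 13.7%). T-box letters, GGTGTGA, occurred in 0 of 19, against 2.98%. Both strands were searched throughout. Matches are descriptions of the letters and not of sites in use.

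**Figure D1:**
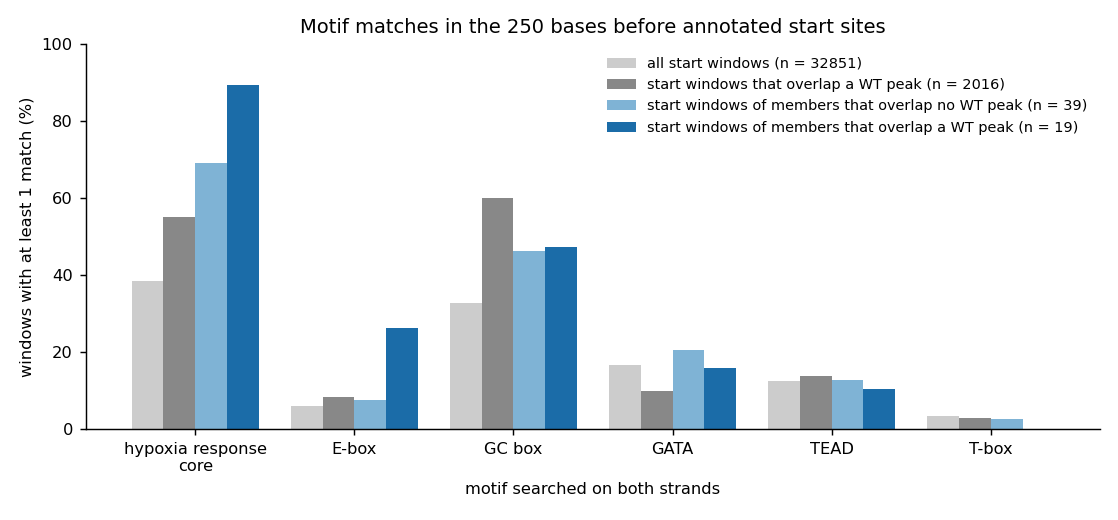
Share of windows of 250 bases before annotated start sites that hold each motif at least once, in percent, for all windows, windows with a WT peak, and windows of the 41 genes without and with a WT peak. The hypoxia response core stood at 89.5% in the last set and at 55.1% in all windows with a peak.

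Peaks of the listed genes were of ordinary strength. The authors' fold enrichment (ChIP over background) ranged from 2.65 to 15.6 with a median of 4.06, and the median over all WT peaks was 4.004. A fold enrichment of at least 5 was reached by 17 of 63 peaks (27.0%), against 26.1% of all WT peaks. The strongest of the 63, at Slc16a1, ranked 96 among 17587. Several peaks per gene were frequent: 9 of 41 genes (22.0%) had at least 3 peaks, against 9.77% of all genes. Hk2 had 7, Pfkp 6, Hk1 and Slc2a1 5 each, Slc16a1 4, and Hif1a, Pfkfb3, Eno1 and Pkm 3 each. These 9 genes had a median length of 46231 bp. Median length was 22861 bp in all 27 with a peak and 15993 bp in the 14 without. Over all genes it was 40090 bp in those with a peak and 11643 bp in those without. The part of gene length in these counts was not tested.

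**Figure D2:**
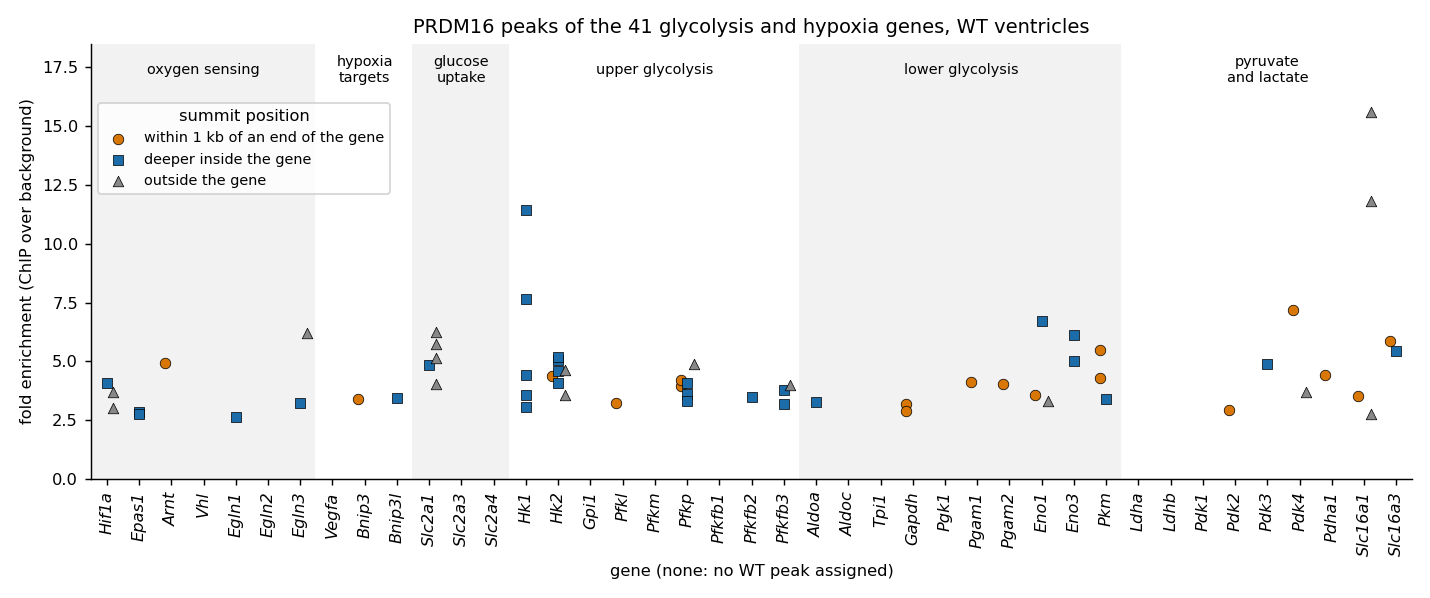
Fold enrichment of each of the 63 WT peaks (vertical axis, ratio of ChIP to background) by gene, in the order of the genes' roles, with symbols for the position of the summit. The highest values were 15.6 and 11.8 at Slc16a1, both outside the gene, and 11.4 inside Hk1, and 14 genes have no symbol because no peak was assigned to them.

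None of the 63 peaks was found in the knockout. Of 63 peaks 0 overlapped a Prdm16cKO peak by 1 bp or more, which allows a share of up to 4.76%. The share over all WT peaks was 1.12%, so that 0 of 63 lies near it. None of the 330 knockout peaks had one of the 41 genes as its nearest gene. Among WT peaks that share was 0.358%, so that 0 of 330 lies near it. The knockout peak closest to any of them lay 282725 bp from Hif1a. A single knockout library stands behind that list, and its depth is not known here, so that no test was made.

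A larger share of these peaks than of all WT peaks lay close to a start, a difference given without a test. Among the 60 peaks whose gene has an annotated start site, 21 (35.0%) had the summit within 1000 bp of it, against 17.5% of 13696 WT peaks. Counted to either end of the gene body, 18 of 63 (28.6%) lay within 1000 bp, against 16.1%. A further 29 (46.0%, against 48.7% of all WT peaks) lay deeper inside a gene and 12 (19.0%, against 19.5%) outside but within 50000 bp. Beyond that lay 4 (6.35%, against 15.6%). More than 50000 bp after the start lay 6.67% of the 60 peaks and 29.1% of all. The length of the genes differed too, as given above, and its part in this was not tested. For the 18 peaks near a gene end the median fold enrichment was 4.08, and for all WT peaks of that kind it was 3.58. Of the 17 peaks with a fold enrichment of at least 5, 3 lay within 1000 bp of a gene end. The matching share of all WT peaks is not given here.

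**Figure D3:**
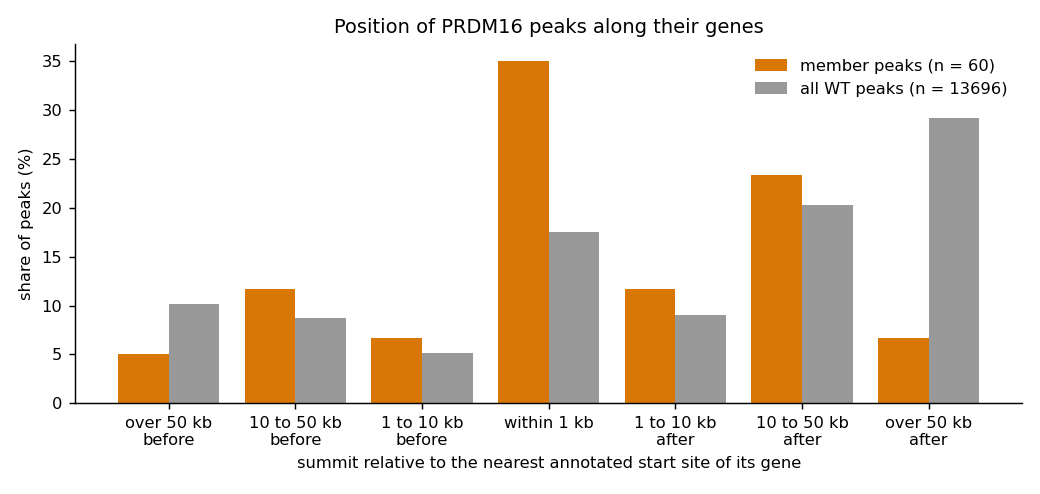
Share of peaks (percent) by distance of the summit from the nearest annotated start site of the gene, before or after it in the direction of transcription, for 60 peaks of the listed genes and 13696 WT peaks. Within 1 kb lay 35.0% and 17.5%, and more than 50 kb after the start 6.67% and 29.1%.

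Of the 7 genes of oxygen sensing 5 had a peak, 9 peaks in all with a median fold enrichment of 3.23. Hif1a encodes the alpha subunit that responds to oxygen. Its strongest peak, at chr12:73907681-73907947 (GRCm38), reached a fold of 4.06, and the summit was 114 bp before an annotated start inside the gene body. Reads there numbered 12 and 3 in LV and 8 and 9 in RV, in the order of the libraries called A and B. The ventricles overlap at this peak. The remaining pair of Hif1a peaks lay 38148 bp and 5353 bp outside the gene, with folds of 3.71 and 2.998. Epas1, which encodes HIF-2 alpha, had 2 weak peaks inside the gene, of 2.85 and 2.77. Arnt, the shared partner subunit, had a single peak of 4.91 at chr3:95434322-95434616, 89 bp after its start. It held 26 and 12 reads in LV and 19 and 16 in RV. After normalization both LV libraries were slightly above both RV libraries (19.4 and 17.6 against 16.5 and 15.4).

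Among the prolyl hydroxylases, Egln1 had the weakest of the 63 peaks, of 2.65, 22663 bp after its start. Egln3, a hydroxylase that HIF induces, had a peak of 3.23 inside the gene and one of 6.20 that lay 83354 bp before its start, at chr12:54286952-54287393. At the distant site reads were 15 and 11 in LV and 16 and 17 in RV, with overlap. No peak was assigned to Egln2 or Vhl. The nearest WT summits lay 314911 bp and 59170 bp from them. Of 3 classical HIF targets, Bnip3 and Bnip3l, which promote removal of mitochondria, had a peak each, of 3.41 and 3.43. The Bnip3 peak at chr7:138909580-138909822 had its summit 180 bp before the start, and the Bnip3l peak was inside the gene. Vegfa, the main growth factor of blood vessels, had none, and the nearest summit was 51871 bp away and fell to Mrps18a.

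Of 3 glucose transporters only Slc2a1 (GLUT1) had peaks, 5 of them with a median fold of 5.15. One lay inside the gene, 9997 bp after the start, with a fold of 4.84. The other 4 formed a row 32197 to 57865 bp before it, with folds from 4.03 to 6.24 and the strongest at chr4:119050690-119051275. In that row the balance of ventricles varied from peak to peak. The strongest held 38 and 13 reads in LV and 12 and 26 in RV, so that the ventricles overlap. At the third, chr4:119064104-119064706, 19 and 5 reads in LV stood against 32 and 26 in RV. There both RV libraries were above both LV libraries after normalization. Slc2a4 (GLUT4), the insulin-responsive transporter, and Slc2a3 (GLUT3) had no peak of their own. Summits 47332 bp from Slc2a4 and 9006 bp from Slc2a3 fell to Phf23 and Foxj2.

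The upper part of glycolysis, from hexokinase to phosphofructokinase and its regulators, held 23 peaks at 6 of 9 genes. Hk1 and Hk2, the hexokinases that trap glucose in the cell, carried 12 of them. All 5 peaks of Hk1, from 3.06 to 11.4, were inside the gene. The strongest, at chr10:62338423-62338958, had a fold of 11.4 (rank 337) and lay 1648 bp after an annotated internal start, and a peak of 3.59 lay 42 bp after that start. A further peak of 7.66 was found 7638 bp after it. At the 11.4-fold site there were 24 and 9 reads in LV and 35 and 23 in RV. Both RV libraries were above both LV libraries there, while the start peak with 44 and 14 reads in LV and 29 and 20 in RV showed overlap.

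Hk2 had peaks from 3.57 to 5.19 in fold, spread over the gene and its flanks. The strongest, at chr6:82763804-82764436, lay 10413 bp after the start. Reads there were 17 and 5 in LV and 15 in each RV library. At the start itself the peak chr6:82774341-82774856 had its summit 48 bp before the site, with a fold of 4.38. It held 24 and 9 reads in LV and 16 and 15 in RV, and the ventricles overlap. Hk2 differed most between ventricles at its second peak, chr6:82728637-82728977, 3765 bp inside the far end of the gene, described with the comparison of LV and RV.

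Phosphofructokinase commits sugar to glycolysis. Pfkp, its platelet form, had 6 peaks from 3.30 to 4.87, the strongest outside the gene, 18257 bp before the start. One of 4.22 lay 58 bp before the start with 29 and 12 reads in LV and 22 and 15 in RV, and the ventricles overlap. Pfkl, the liver form, had 1 peak of 3.24, 392 bp after its start. Pfkm, the muscle form, had none. A strong WT peak of 7.46 at chr15:98149053-98149847 lay 16883 bp from Pfkm but was nearer to Asb8. Pfkfb enzymes set the level of the activator of phosphofructokinase. Pfkfb3 had 3 peaks from 3.17 to 3.997, the strongest 45548 bp outside the gene and another 113 bp after an annotated start. Pfkfb2 had 1 of 3.49, and Pfkfb1 had none. Gpi1, the isomerase between hexokinase and phosphofructokinase, had no peak within 50000 bp.

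In the lower part of glycolysis, from aldolase to pyruvate kinase, 7 of 10 genes held 13 peaks, and those of 6 genes included one within 1000 bp of a start. The peak of Aldoa, the muscle aldolase, had a fold of 3.27 and lay 23 bp before a start site. Gapdh had peaks of 3.20 and 2.87 at its start side, the first 204 bp after a start. Pgam1 and Pgam2, the brain and muscle forms of phosphoglycerate mutase, had 1 peak each of 4.12 and 4.04, with summits 176 and 104 bp before the start. Eno1, the widespread enolase, had 3 peaks from 3.32 to 6.72, the strongest of 6.72 at chr4:150240030-150240431, 2971 bp after a start. Eno3, the muscle enolase, had a peak of 6.12 at chr11:70655877-70657445 with its summit 7 bp before the start. At 1569 bp it was the widest of the 63. Its neighbour of 5.02 was equally near to Pfn1, since both gene bodies cover it. Pkm, pyruvate kinase, had peaks at both annotated starts, of 5.50 (66 bp before) and 4.31 (18 bp before), and another of 3.39 inside the gene. At the first there were 50 and 24 reads in LV and 46 and 25 in RV. Aldoc, Tpi1 and Pgk1 had none within 50000 bp.

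Where pyruvate and lactate part ways, 6 of 9 genes held 11 peaks. Slc16a1 (MCT1), a lactate and pyruvate transporter, had the strongest of all, of 15.6 at chr3:104599267-104600270, 39015 bp before its start. It held 158 and 53 reads in LV and 83 and 48 in RV. Another Slc16a1 peak, of 11.8 (rank 297) at chr3:104712689-104713375, lay 54455 bp beyond the other end of the gene. Its reads were 38 and 22 in LV and 28 and 26 in RV. Of the other 2, one of 3.54 lay 316 bp before the start and one of 2.77 lay 16955 bp past the gene. Slc16a3 (MCT4), the lactate exporter of glycolytic cells, had 2 peaks, of 5.87 at 27 bp before the start and 5.44 at 2065 bp after it.

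Pyruvate dehydrogenase kinases turn pyruvate away from oxidation. Pdk4, the form of fasting and fatty acid use, had a peak of 7.19 at chr6:5496015-5496865, 298 bp before its start. It held 52 and 23 reads in LV and 42 in each RV library. After normalization the libraries were close, at 38.7 and 33.7 in LV and 36.4 and 40.5 in RV, and the ventricles overlap. Pdk2 had 1 peak of 2.93, 84 bp before the start, and Pdk3 had 1 of 4.87 inside the gene. Pdha1, the subunit that these kinases modify, had 1 of 4.397, 322 bp after its start. Pdk1 and both lactate dehydrogenase genes, Ldha and Ldhb, had none. Their nearest summits were 85452, 102876 and 59614 bp away. Of the 14 genes without a peak, 11 had no WT summit within 50000 bp.

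LV and RV were compared at the 63 peaks with the deposited table, which holds 1 normalized value for each ventricle. Whole reads for each library were worked out from these values. The letters A and B could not be tied to the replicate numbers of the labels. Reads in all WT peaks were 184244 to 330443 per library, of which the 63 peaks took 0.295% to 0.374%. Median reads per peak were 15 and 6 in LV and 12 and 11 in RV, so that counting error alone is large at a single peak. At 34 peaks the value was higher in LV and at 29 in RV, against 8667 and 8919 of all 17587 regions. The median log2 difference, RV minus LV, was -0.065, against 0.010 over all regions, and it was 0.096 without LV library A. By role the median in the authors' deposited table ran from -0.18 at glucose transport to 0.09 at oxygen sensing.

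No peak of the 63 passed. By the test of the authors' deposited table, for which no method is named, 0 of 63 had an adjusted p under 0.05, as did 0% of all regions. An unadjusted p under 0.05 there was found for 1 peak higher in LV (1.59%, against 0.341% of all regions) and for 0 higher in RV (against 0.142%). A limma test across all 17587 regions, with n = 2 pools per ventricle, also gave 0 of 63 at an adjusted p under 0.05, against 0.0284% of all regions, and the smallest adjusted p was 0.542. Its unadjusted p was under 0.05 at 2 peaks higher in LV (3.17%, against 3.13%) and at 3 higher in RV (4.76%, against 3.18%). Both LV libraries were above both RV libraries at 9 peaks (14.3%, against 17.9% of all regions), and the opposite held at 10 (15.9%, against 17.6%). The 95% interval reached a median of 0.95 to either side on the log2 scale, before adjustment.

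**Figure D4:**
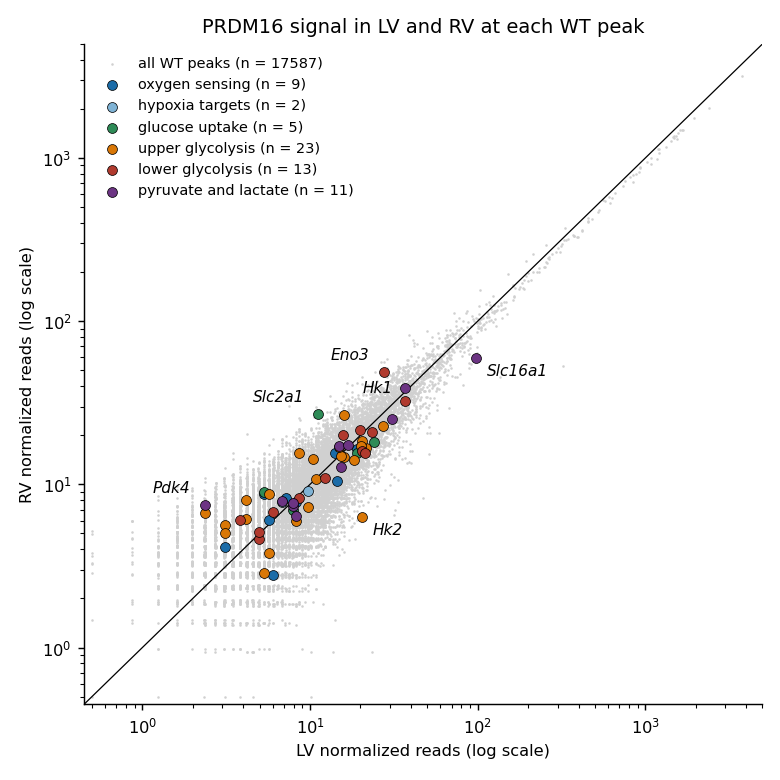
Normalized reads of the authors' deposited table in LV (horizontal) and RV (vertical), both on log scales, at 17587 WT peaks (grey) and at the 63 peaks of the listed genes (coloured by role), with the line of equality. Peaks of the listed genes lie within the cloud, with Hk2 (20.4 in LV and 6.33 in RV) and Slc2a1 (11.2 and 26.9) among those farthest from the line.

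The largest contrast toward LV among peaks of small p was at Hk2. The second Hk2 peak, chr6:82728637-82728977, held 14 and 20 reads in LV and 9 and 4 in RV, or 10.4 and 29.3 against 7.79 and 3.86 normalized reads. Both LV libraries were above both RV libraries, but the LV pair differed widely. The limma log2 difference was -1.51 (SE 0.48, adjusted p = 0.573), and the p of the authors' deposited table was 0.0418. The value depended on single libraries. Without LV library A, which leaves 1 LV pool assumed to vary like the RV pools, it was -2.21 with a limma adjusted p of 0.0124, and without LV library B it was -0.81 (0.944). Without LV library A the share of all regions called rose as well, to 0.512%. In the strongest Slc16a1 peak the normalized reads were 118 and 77.7 in LV and 71.9 and 46.3 in RV. The ventricles were separated there by a small margin, and limma gave a log2 difference of -0.72 (SE 0.34, adjusted p = 0.759). It was -0.42 without LV library A and -0.41 without RV library B.

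Toward RV, the third Slc2a1 peak had 14.1 and 7.33 normalized reads in LV and 27.7 and 25.1 in RV. The limma log2 difference was 1.29 (SE 0.38, adjusted p = 0.542), with 1.72 without LV library A (adjusted p = 0.0143, in the setting that called 0.512% of all regions) and 0.85 without LV library B (0.755). The start peak of Eno3 had 32.0 and 22.0 in LV and 53.7 and 42.4 in RV, with no overlap. Its limma log2 difference was 0.82 (SE 0.33, adjusted p = 0.682). A distal Pdk4 peak, 13231 bp before the start, had 5 and 0 reads in LV and 6 and 9 in RV. These few reads gave a limma log2 difference of 1.83 (SE 0.76, adjusted p = 0.706), which ran from 0.71 without LV library B to 2.95 without LV library A. At the 11.4-fold Hk1 peak the difference was 0.72 (SE 0.35, adjusted p = 0.785), and at the third Pfkfb3 peak 0.82 (SE 0.42, adjusted p = 0.787).

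The remaining LV-side peaks of smallest p lay at Epas1, Slc2a1 and Pkm. The first Epas1 peak had 7 and 4 reads in LV and 3 and 2 in RV, a log2 difference of -1.01 (SE 0.67, limma adjusted p = 0.838). The strongest Slc2a1 peak had -0.49 (SE 0.39, 0.882), a sign that turned to 0.11 without RV library A. The internal-start peak of Pkm had -0.44 (SE 0.36, 0.884). At Slc2a1, Hk1 and Hk2, peaks of one gene took both signs, with limma log2 differences from -0.49 to 1.29, -0.44 to 0.72 and -1.51 to 0.79.

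**Figure D5:**
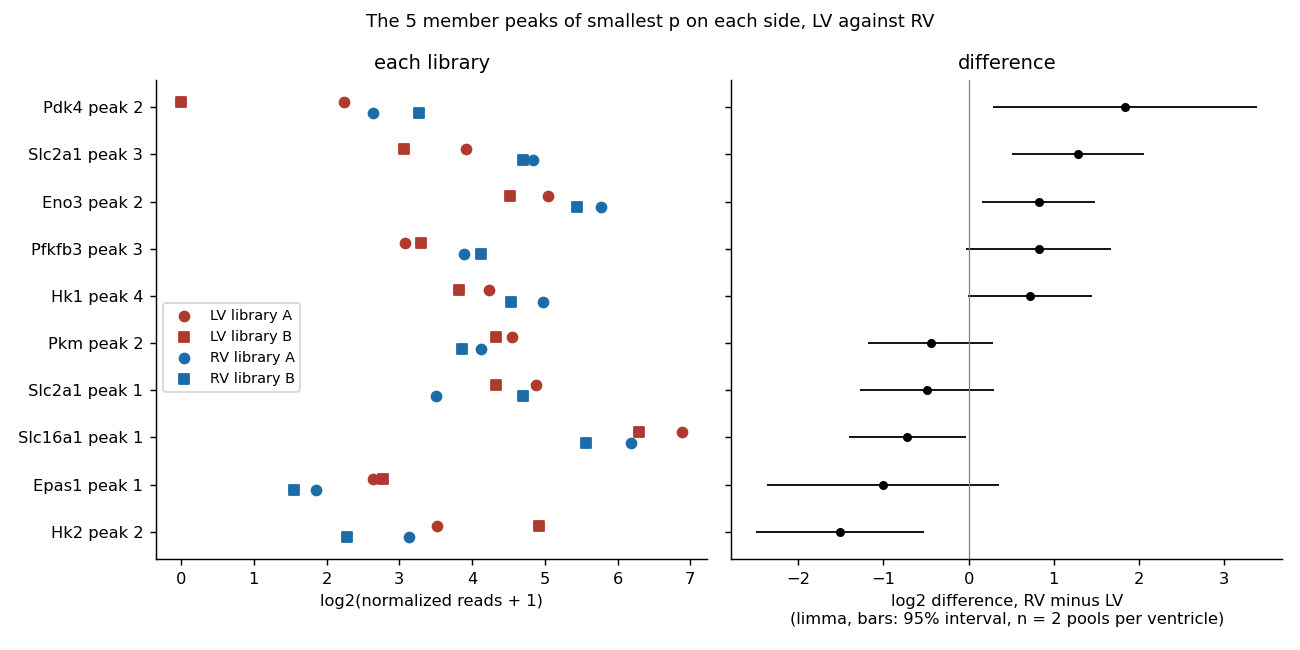
The 5 peaks of smallest limma p on each side, numbered along the chromosome within each gene. Left, log2 of normalized reads plus 1 in each of the 4 libraries; right, the log2 difference RV minus LV with its 95% interval. The intervals of 5 peaks exclude 0 before adjustment, among them Hk2 peak 2 (-2.49 to -0.53) and Slc2a1 peak 3 (0.51 to 2.06), and no peak passed after it.

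Related genes outside the list were read in the same way. These 4 further lists were also drawn up with earlier results known. Of 80 related genes 44 (55.0%) had a WT peak, against 32.9% of all protein-coding genes. Among other regulators and targets of hypoxia 18 of 27 did (66.7%). The strongest were at Vldlr, a lipoprotein receptor induced by HIF (10.0, 116438 bp from the gene), Hif1an, the asparagine hydroxylase that inhibits HIF (7.82, 30846 bp from the gene), and P4ha2, a collagen prolyl hydroxylase (7.52). Of 16 genes of glycogen 11 had a peak (68.8%). They were led by Gyg, the glycogenin that primes glycogen (15.4, with 7 peaks), and Ppp1r3c, a glycogen-targeting phosphatase subunit (13.46, 42260 bp from the gene). The only peak of Epm2a, 1 of these 11, had a fold of 1.69 and overlapped a Prdm16cKO peak by 96 bp. In pyruvate oxidation and transport 8 of 14 genes had a peak (57.1%). Highest in fold were Pcx, pyruvate carboxylase (8.79), Pdp1, the phosphatase that reactivates pyruvate dehydrogenase (5.50), and Me1, malic enzyme (4.57). Other isoforms of glycolysis had a peak at 7 of 23 genes (30.4%), close to the 32.9% of all genes, with Tigar (7.25) and Hkdc1 (6.07) first.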

How the data were processed

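Data were a WT peak list, a Prdm16cKO peak list and an LV-RV table. Per the submitters' processing notes the tools included MACS2 2.1.1.20160309, DESeq2, HOMER and BWA 0.7.12-r1039, with the builds GRCm38 and mm10, all without roles; pooling of replicates and filters are not stated. Deposited peak lists give a score, a fold enrichment ratio, -log10 of q, and a summit offset, as the authors' peak caller wrote them. Per the file headers, the table gives a signal per ventricle, log2 values, and p-values of the authors with their adjusted form.

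Each deposited signal equalled 0.5 plus the mean of 2 libraries' whole reads times a factor (0.744 and 1.47 in LV, 0.866 and 0.965 in RV). All 17587 regions had 1 solution (largest residual 1.56e-11, tolerance 1e-07). The library with the smaller factor is called A.

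limma 3.58.1 (R 4.3.3) took log2(normalized reads + 1), the 1 being the pseudocount, and used its trended variance, no minimum and Benjamini-Hochberg adjustment over all regions; it and the read recovery were tested on simulated data. Nothing given says that replicate pools came from separate animals, so p-values measure only the spread between these libraries, which may be technical. The rest ran in Python 3.11.15 (pandas 2.3.3; numpy 2.4.6; figures with matplotlib 3.10.9). A peak covered by 2 gene bodies counted for both. Start sites came from RefSeq (GRCm38.p6). Overlap meant 1 bp, and the limit beside a count of 0 is 3 counts of the total and covers counting error only. Genes and lists were chosen with earlier results of these data known. Every gene was named, with its strongest peak, and for LV against RV the 5 peaks of smallest limma p on each side; in each further list the 3 genes of highest fold, of which some are not reported here. Alternatives covered assignment, peak thresholds, pseudocount, read minimum, library factors (TMM) and single libraries. Motifs in peaks away from start windows were not analysed here.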

Additional observations from a re-analysis of the deposited data

How the results depend on the processing

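With peaks of fold enrichment of at least 5, 10 of the 41 genes had a peak (24.4%, against 2954 of all 21883 genes), peaks numbered 17, and 3 of them lay within 1000 bp of a gene end (27, 63 and 18 as reported). Other assignments and thresholds gave 21 to 30 genes, 43 to 79 peaks and, for the window or q alternatives, values within 1.5 times the reported ones. With every gene within 50000 bp counted, Slc2a3, Slc2a4 and Pfkm gained a peak and the contrast with all genes narrowed, to 73.2% against 56.0% (65.9% against 32.9% as reported); with -log10 q of at least 5 it was 51.2% against 26.1%. Overlap with knockout peaks was 0 in each setting tried, and the count by the deposited adjusted p was 0 at 0.1 too. Leaving out 1 library gave 0 to 2 peaks with a limma adjusted p under 0.05 (2 without LV library A, namely Hk2 at -2.21 and Slc2a1 at 1.72, while calls over all regions rose from 5 to 90, or 0.512%) and medians of -0.10 to 0.096 on the log2 scale. Of 78 values at the 10 named peaks, 75 kept direction and side of the threshold, and 1 reversed, the strongest Slc2a1 peak (-1.09 to 0.11 over the left-out libraries, the last without RV library A); the cause was not tested. The distal Pdk4 peak was 3.46 with a pseudocount of 0.1 and 0.84 with 5. Leaving out peaks equally near to 2 genes was chosen after seeing the data and left 62 peaks at 27 genes. No paired analysis was possible because the deposited columns carry no replicate number. Depth limits single peaks: the median peak of these genes held 6 to 15 reads per library.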
